A study of Mus musculus with 8 samples.

Results

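Lungs of mouse embryos that carried a pair of transgenes for misexpression of MIA were compared with lungs of single transgenic controls at E18.5, on 6 of the 8 arrays of the series. All 45037 probe sets of the Affymetrix MOE430_2 array entered the comparison, after 64 AFFX control probe sets had been left out of the 45101 deposited rows. The embryos were FVB/N, and the groups held 3 control and 3 bitransgenic lungs, each from total RNA. Per the labels both groups belong to an SP-C/MIA model, and the design text calls the controls littermates. Which transgene the controls carried and whether an inducing agent was given are not given in the sources used here. Nothing in the labels says whether an array held the lung of 1 embryo or a pool, so p-values measure the spread between these arrays. The question was how misexpression of MIA alters gene expression of the whole lung shortly before birth.

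MIA (melanoma inhibitory activity) is a small secreted protein, best known from melanoma and cartilage, that binds fibronectin and alters how cells attach to integrins. SP-C is surfactant protein C, and the regulatory sequence of its gene is widely used to drive transgenes in the distal lung epithelium. At this stage the epithelium of the mouse lung forms alveolar type II cells, which make and store surfactant, and flat type I cells, across which gas is exchanged.

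Each array had the same 2% trimmed mean of 1500, as after scaling to a common target, so this value does not compare the arrays. The median signal lay between 415 and 464. The signal ratio of the 3' to the 5' Actb probe sets, a sign of RNA quality, was 1.5, 1.47 and 1.28 in controls 1, 2 and 3. It was 1.65, 1.51 and 1.61 in bitransgenic lungs 1, 2 and 3. All bitransgenic arrays thus lay above all controls, although bitransgenic 2 (1.506) was close to control 1 (1.501). For Gapdh this ratio was 0.9206, 0.9210 and 0.781 in controls and 0.996, 0.9209 and 1.08 in bitransgenic lungs, so that the groups overlapped. By Xist each group held 2 females and 1 male. Values below are MAS5 signals on a linear scale in the order of replicates 1 to 3, and where triplets are joined by "against" the controls come first. Changes are differences of log2(signal + 86.4), bitransgenic minus control, where 86.4 is the 20th percentile of the table, and a negative change means less in the bitransgenic lungs. Unless stated otherwise a gene was read by the probe set with the highest mean among those that name it alone. A gene was called higher or lower when limma's moderated test gave an adjusted p under 0.05 over all 45037 probe sets.

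The transgene product was measured first. Mia read 1071, 1070.5 and 734 in control and 31399, 42666 and 41546 in bitransgenic lungs. The lowest bitransgenic signal was thus far above the highest control, and the log2 change was 5.21 (SE 0.18, limma adjusted p = 8.53e-06). Genes next to the native Mia gene on chromosome 7 were also read, which says nothing about a transgene placed elsewhere. Of the 3 nearest measured genes on each side, none passed. Rab4b, a small GTPase gene 858 bases away from Mia on GRCm38, read 2241, 2381 and 2841 against 2464, 2469 and 1956, with overlapping groups. Egln2, which encodes an oxygen-sensing prolyl hydroxylase, read 6589.9, 6386 and 6215 against 8353, 8821 and 9257, and its log2 change was 0.46 (95% interval 0.22 to 0.69, limma adjusted p = 0.248). Cyp2f2, Itpkc, Coq8b and Numbl had log2 changes between -0.26 and 0.028. The related gene Mia3, which encodes a transport protein of the endoplasmic reticulum, read 4408, 4128 and 6279 in control and 4789, 5349 and 5804 in bitransgenic lungs, and Mia2 was dim on every array, with a highest signal of 141.

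The test called 63 of 45037 probe sets (0.14%), 24 higher (0.0533%) and 39 lower (0.0866%) in the bitransgenic lungs, and 3487 had an unadjusted p under 0.05. Of the 63, 17 rose and 37 fell by at least 2-fold, and 2 rose and 17 fell by at least 4-fold. They named 51 genes, and 4 had no gene name. Read by 1 probe set per gene, 44 of 18193 genes passed (0.242%), 19 higher (0.104%) and 25 lower (0.137%), and their groups did not overlap. Separation of all bitransgenic from all control values was found in 14.3% of genes, 7.55% higher and 6.71% lower (13.9% of probe sets), and the median log2 change was 0.0097. Without control 1, control 2, bitransgenic 1, bitransgenic 2 or bitransgenic 3 the count of 63 probe sets fell to 27, 18, 19, 20 and 26. With the Actb ratio in the model, which leaves 1 residual degree of freedom fewer, it fell to 11. That ratio was higher in every bitransgenic array, so its part and that of the group are hard to tell apart. With sex in the model instead, also with 1 residual degree of freedom fewer, the count was 66. It was 120 of 27022 with probe sets under the 40th percentile left out. Mia, Gstm5, Sftpa1, Scd1, Acoxl, Aqp5, Hc and Klk13 passed in every alternative in which they were tested, and Bex2, Cdh16, Chil1 and Rnase4 also passed with each array left out in turn. Each of the other 32 called genes lost its call without at least 1 array, and many without most arrays. Aldh1a7, Ccdc3, Clec12b, Fbn2, Gdpd2, Gjb6, Igsf5, Irx2, Lyz2, Msln and St6galnac2 passed in 0 of the 6 fits with an array left out. Abca3, Atp13a4, Atp6v1c2, Car4, Dsg2, Grpel2, Il33, Lyplal1, Niban1, Npy2r and Rspo2 passed in 1 of the 6.

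**Figure D1:**
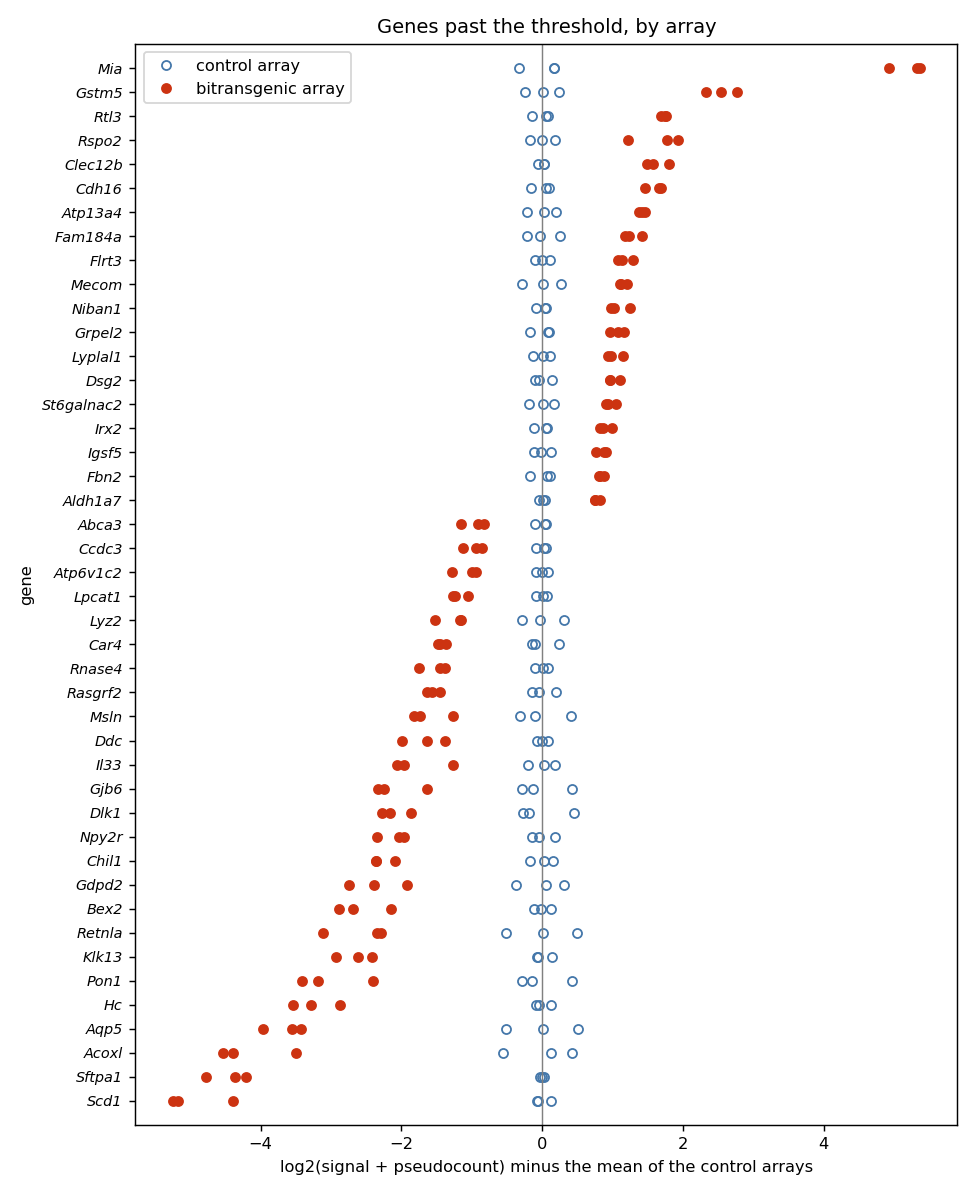
Each row is 1 of the 44 genes past the threshold and each point 1 array, plotted as log2(signal + 86.4) minus the mean of the 3 controls (open circles, control; filled circles, bitransgenic). In every row the groups are apart, from Scd1 with a log2 change of -4.94 at the foot to Mia with 5.21 at the top.

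Surfactant proteins coat the lipid film of the airspace and bind microbes. Of their 4 genes only Sftpa1, which encodes surfactant protein A, passed (genes lower, 0.137% of all). Sftpa1 read 41356, 42577 and 40871 against 1437, 2170.2 and 1929, a log2 change of -4.45 (SE 0.15, limma adjusted p = 8.53e-06). A second Sftpa1 probe set read 24842, 20789 and 13787 against 461, 477 and 371 and fell by 5.21 on the log2 scale. Every control lay far above every bitransgenic array on both. Sftpd, for surfactant protein D, read 17918, 17973 and 21760.2 against 9675, 12429 and 11931, without overlap, and missed the threshold with a log2 change of -0.76 (95% interval -1.08 to -0.44, limma adjusted p = 0.128). Sftpb, for the hydrophobic protein B, read 11619.5, 14704 and 42045 in control and 4204, 4635 and 5665 in bitransgenic lungs. Control 3 stood far above the other controls there, and the log2 change of -1.99 had a 95% interval of -2.90 to -1.08 (limma adjusted p = 0.166). Sftpc, whose regulatory sequence the model is named for, was bright in every lung, with 81074, 84648 and 88408 against 72239, 90433 and 93285, and its log2 change of 0.0021, with a sign that turned under median centring and quantile normalization, had a 95% interval of -0.35 to 0.36. Without control 3 the fall of Sftpb passed, at -1.43 on the log2 scale (limma adjusted p = 0.0329). With array weights Sftpb and Sftpd both passed, with -1.74 and -0.71 (limma adjusted p = 0.0244 and 0.0369). With the Actb ratio in the model neither did (limma adjusted p = 0.91 for both), and over all alternatives the adjusted p ran from 0.0244 to 0.91 for Sftpb and from 0.0369 to 0.91 for Sftpd. In RNA from whole lung, fewer cells of a type and less RNA per cell cannot be told apart.

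The stretches before the transcription start are shown for 3 genes that fell, Sftpa1, Retnla and Abca3, all products of distal epithelium or its airspace. Those of Sftpa1 and Retnla both hold matches to CTCAAG and TATAAA, and that of Abca3 holds 1 to TCACNCCAC. Each is the 250 bases before the start, from RefSeq on GRCm38.p6, 5′ to 3′ on the gene's strand, with matches in capitals.
Sftpa1 (chr14:41131538-41131787, plus strand): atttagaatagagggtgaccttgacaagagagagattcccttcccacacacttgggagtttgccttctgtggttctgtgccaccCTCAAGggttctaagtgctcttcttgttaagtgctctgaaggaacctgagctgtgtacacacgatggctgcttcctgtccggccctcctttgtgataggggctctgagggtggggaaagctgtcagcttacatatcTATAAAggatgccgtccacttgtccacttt
Retnla (chr16:48842359-48842608, plus strand): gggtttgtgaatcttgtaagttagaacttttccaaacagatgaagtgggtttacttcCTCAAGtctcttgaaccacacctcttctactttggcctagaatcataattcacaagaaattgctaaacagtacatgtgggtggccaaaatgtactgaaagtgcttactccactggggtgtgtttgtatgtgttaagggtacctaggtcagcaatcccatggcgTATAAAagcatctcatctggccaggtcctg
Abca3 (chr17:24351773-24352022, plus strand): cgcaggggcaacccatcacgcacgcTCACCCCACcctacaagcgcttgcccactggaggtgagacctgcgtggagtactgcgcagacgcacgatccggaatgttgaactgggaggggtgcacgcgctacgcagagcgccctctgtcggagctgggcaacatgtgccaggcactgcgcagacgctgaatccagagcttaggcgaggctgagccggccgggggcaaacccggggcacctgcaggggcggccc
Capitals mark CTCAAG, a recognition core of the lung factor NKX2-1, TATAAA, the core sequence of the TATA box, and TCACNCCAC, a sterol regulatory element, on either strand. Matches were counted at any position of windows of 300 bases (250 before the start and 50 after it), on either strand. TATAAA was in 8 of 23 genes that fell (34.8%), in 2 of 12 that rose (16.7%) and in 1662 of all 14452 measured genes with a window. CTCAAG was in 17.4%, 16.7% and 16.9%, CCAAT in 39.1%, 41.7% and 42.0%, and TCACNCCAC in 2 of 23, 0 of 12 and 1.46%. The C/EBP motif TTGCNNCAA was in none of the 23 and 12 windows and in 2.03% of all. These matches describe the windows, and no test was made. TATAAA lay 30 bases before the start in Sftpa1 and Retnla and 29 before it in Il33. In the other called genes with TATAAA it lay further upstream or after the start. The counts of TATAAA are therefore not counts of TATA boxes. Scd1, Msln, Cdh16, Rspo2, Dsg2, Fbn2, Grpel2, Igsf5 and St6galnac2 had no window in the table.

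**Figure D2:**
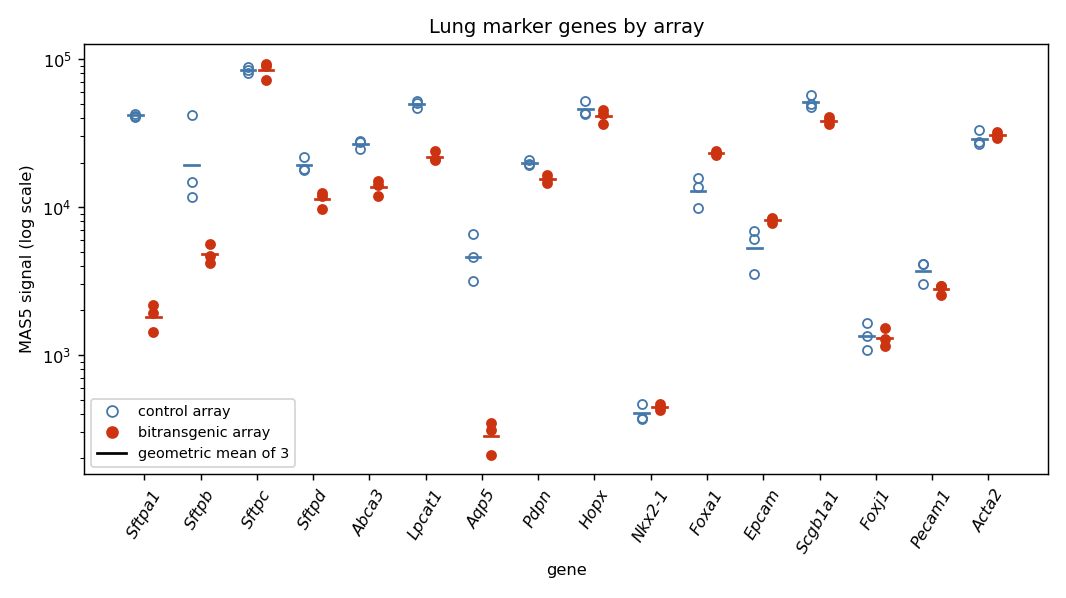
MAS5 signal (log axis) of 16 lung marker genes on each array, with controls as open circles, bitransgenic lungs as filled circles and bars at the geometric mean of 3. Sftpa1 and Aqp5 are far apart between the groups, while Sftpc, Hopx, Nkx2-1, Foxj1 and Acta2 overlap.

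Surfactant lipid is assembled by acyltransferases and pumped into lamellar bodies for secretion. In the list of surfactant processing and lamellar body genes, which includes the 4 surfactant proteins, 4 of 21 measured genes fell (Sftpa1, Lpcat1, Abca3 and Lyz2), none rose and 17 did not pass (genes lower, 0.137% of all), with a median log2 change of -0.35. With the Actb ratio in the model 1 fell. Lpcat1, which remodels phosphatidylcholine into its surfactant form, read 52300.1, 50367 and 46735 against 20685, 20979 and 23943, a log2 change of -1.19 (limma adjusted p = 0.0127). Abca3, the lipid pump of the lamellar body, read 27805, 27522 and 24842 in control and 11950.2, 14098 and 14966 in bitransgenic lungs, a log2 change of -0.97 (limma adjusted p = 0.0352). Neither gene's groups overlapped. Other probe sets differed: for Lpcat1 a pair fell with log2 changes of -2.17 and -1.97, 1 at -1.36 did not pass and 1 at 0.45 did not pass, and for Abca3 1 fell with -1.55 and 1 at 0.37 did not pass. Slc34a2, the phosphate transporter of type II cells, read 40269.8, 39206 and 39421 against 7578, 15017 and 16342 and just missed the threshold (limma adjusted p = 0.0657).

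Among fatty acid genes Scd1 and Acoxl fell. Scd1, which makes monounsaturated fatty acids, read 41930.0, 36466 and 36858 against 977, 923 and 1741, a log2 change of -4.94 (SE 0.21, limma adjusted p = 3.48e-05). Acoxl, an acyl-CoA oxidase-like gene, read 2589.8, 3198 and 1588 in control and only 18.7, 30.1 and 131 in bitransgenic lungs, of which bitransgenic 1 and 2 are below the pseudocount, and its log2 change was -4.14, a size set in part by the pseudocount. Scd1 and Acoxl were the 2 of 21 measured members of the fatty acid and phospholipid list to fall (genes lower, 0.137% of all). Both also fell with the Actb ratio in the model. None rose, and the median was -0.41. In 11 of the 21 all bitransgenic values lay below the controls (6.71% of all genes). Acaca, for the enzyme that commits carbon to fatty acids, read 2753, 2654 and 2879 in control and 1645, 1967 and 1686 in bitransgenic lungs (limma adjusted p = 0.165), and Fasn, for fatty acid synthase, 19950.2, 20021 and 23598 against 13856, 15452 and 14678 (limma adjusted p = 0.248). The other large desaturase gene, Scd2, read 76651, 68927 and 75109.5 against 49191, 58547 and 48773 on its brightest probe set (limma adjusted p = 0.378), while a dimmer one passed with a log2 change of -1.02. No gene of 16 in cholesterol synthesis and uptake passed, with a median of -0.26. In 7 of the 16 all bitransgenic values lay below the controls (6.71% of all genes), and in none above. Fdps, an enzyme of isoprenoid synthesis, read 1488, 1719.7 and 2511 in control and 987, 1054 and 989.5 in bitransgenic lungs.

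Type I genes had lower values in most members and 1 call. Aqp5, the water channel of type I and gland cells, read 3179, 4618 and 6593 against 311, 348 and 212, a log2 change of -3.65 (SE 0.26, limma adjusted p = 0.00116). It was the 1 of 24 measured type I genes to fall (genes lower, 0.137% of all), and none rose. In 17 of the 24 all bitransgenic values lay below the controls (6.71% of all genes), and the median was -0.39. With probe sets under the 40th percentile left out 5 of the 24 fell. That filter raised the calls of all kinds, with 76 of 27022 probe sets lower against 39 of 45037 without it. Scnn1g, a subunit of the epithelial sodium channel, read 2698, 3677 and 4281 against 1477, 1818 and 1196 (limma adjusted p = 0.0995). Ager, the receptor that is among the most abundant type I transcripts, read 74917, 75193 and 70597 in control and 57806, 61078 and 58241 in bitransgenic lungs, a log2 change of -0.32 (95% interval -0.61 to -0.02), and Hopx read 42371, 43346 and 52432 against 36241, 42704 and 45364, with overlap. Pdpn, the podoplanin gene, had a log2 change of -0.36 (95% interval -0.61 to -0.10). A change as large as that of Aqp5 lay outside the intervals of Ager and Pdpn.

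Genes for ion and water transport move liquid into and out of the fetal airspace. Among 17 measured, Aqp5 was again the single fall (genes lower, 0.137% of all) and none rose. With probe sets under the 40th percentile left out 3 of 14 fell, where 76 of all 27022 probe sets fell. Aqp1, the water channel of capillaries and mesothelium, read 16769, 20999.8 and 23594 against 8293, 12174 and 9759 (log2 change -1.02, limma adjusted p = 0.105). Atp1b1, a subunit of the sodium pump, read 24635, 25304 and 18304 in control and 35843, 38802 and 37095 in bitransgenic lungs, higher in all bitransgenic lungs but not past the threshold (limma adjusted p = 0.181).

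Secreted factors of airspace defence were measured next. Of 18 measured members 5 fell (Hc, Klk13, Chil1, Retnla and Lyz2), none rose and 13 did not pass (genes lower, 0.137% of all), with a median of -0.34. With the Actb ratio in the model Hc and Klk13 still passed. Hc, which encodes complement component C5, read 13389, 12913 and 15021 against 1100.1, 1328 and 1807 (log2 change -3.23, SE 0.17, limma adjusted p = 0.000174). Klk13, a kallikrein-family peptidase gene, read 4048, 3495 and 3529 against 410.5, 620.0 and 531, a log2 change of -2.65. For both genes the bitransgenic values were more spread on the log2 scale (SD 0.34 for Hc and 0.26 for Klk13) than the controls (0.11 and 0.12), and the groups lay far apart. Chil1, a chitinase-like protein gene, read 1744, 2010.2 and 2197 in control and 315, 316 and 396 in bitransgenic lungs, a log2 change of -2.27. Retnla, for resistin-like alpha, read 14603, 21142 and 29624 against 2339, 4213 and 4054. Its controls differed widely among themselves and still lay far above the bitransgenic lungs (log2 change -2.58). Lyz2, a lysozyme gene of type II cells and macrophages, read 33178, 39847 and 50615 against 17988, 14022 and 18247, a log2 change of -1.28 (limma adjusted p = 0.0473). Cxcl15, for the lung chemokine lungkine, read 53402, 54326 and 55961 in control and 22502, 28701 and 30432 in bitransgenic lungs on its brightest probe set (limma adjusted p = 0.0518), and passed on its other with a log2 change of -1.37. Lcn2, for an iron-scavenging lipocalin, read 2012, 3898 and 5264 against 205, 741 and 591 but missed the threshold (limma adjusted p = 0.0743).

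Secreted proteins and cytokines outside that list also fell. Rnase4, a secreted ribonuclease gene, read 17928, 19352 and 20249 against 5606, 6919 and 7305, a log2 change of -1.53 that passed with each array left out in turn (limma adjusted p = 0.00343). Il33, an alarm cytokine of epithelium, read 2975, 3892 and 3490.3 in control and 812, 1369.8 and 753 in bitransgenic lungs (log2 change -1.77). Pon1, a paraoxonase gene, read 3554, 5293 and 3208 against 289, 672 and 356, a log2 change of -3.0. Bitransgenic 2 had the highest of the 3 lower values in both Il33 and Pon1.

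Genes of other kinds that fell were as follows. Dlk1, an imprinted gene for a membrane protein of fetal growth, read 41651, 44487 and 69379 against 10368, 11186 and 13775, a log2 change of -2.10 (limma adjusted p = 0.00767). A second Dlk1 probe set, with 951, 1166 and 1105 against 363, 310 and 435, fell as well. Bex2, a small adaptor gene known from neurons, read 6660.0, 7898 and 7174 in control and 898, 1054 and 1556 in bitransgenic lungs (log2 change -2.58), whereas its neighbour in the family, Bex1, read 21464, 15969.5 and 6501 against 29108, 24292 and 21424 with overlap. Ddc, for the decarboxylase that makes dopamine and serotonin, read 2976, 2801 and 2678 against 843, 1027 and 639.7 (log2 change -1.67). The defining neuroendocrine gene Chga was dim on every array, with a highest signal of 305. Msln, the mesothelin gene of the lung's outer lining, read 13539, 15680.1 and 22387 in control and 5008, 6956 and 4681 in bitransgenic lungs. Its log2 change was -1.61, while the mesothelial regulator Wt1 read 549.9, 436 and 594 against 327, 382 and 499 with overlap. Msln was the 1 of 13 measured mesothelial genes that fell (genes lower, 0.137% of all). The summed signal of that list was 63199 to 74747 in the controls and 44749 to 51330.5 in the bitransgenic lungs, and its part in the result was not tested.

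The remaining falls were smaller or dimmer. Rasgrf2, an activator of Ras, read 1882, 2242 and 1752 against 568, 601 and 660.3, and Atp6v1c2, a subunit of the vacuolar proton pump, read 4937, 5252 and 4617 in control and 1973, 2521 and 2419 in bitransgenic lungs. Ccdc3, a secreted protein gene, read 3040.1, 3121 and 2818 against 1522, 1621 and 1324. Their log2 changes were -1.55, -1.08 and -0.97. Gdpd2, a glycerophosphodiesterase gene, read 457, 641 and 779 against 47.1, 18.3 and 97.4. Npy2r, a receptor for neuropeptide Y, read 408, 489 and 374 in control and 37.9, 13.7 and 43.5 in bitransgenic lungs, and Gjb6, for connexin 30, read 1052, 1592 and 938 against 163, 317 and 177. The bitransgenic signals of Npy2r all lay below the pseudocount and those of Gdpd2 on 2 of 3 arrays, so their log2 changes of -2.11 and -2.35 are compressed by it. That of Gjb6 was -2.07.

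Gstm5, a glutathione S-transferase gene, rose in the bitransgenic lungs. It read 3447, 4121 and 4834 against 20852, 24370.3 and 28305 (log2 change 2.54, SE 0.16, limma adjusted p = 0.000474). No other measured member of its list rose. Of 32 measured genes of glutathione and xenobiotic metabolism 1 rose and 1 fell, Gstm5 and Pon1 (0.104% and 0.137% of all genes). The median was -0.039. Gstm1, its close relative, read 6298, 7041 and 7956 in control and 4705, 5620.1 and 4461 in bitransgenic lungs, lower in all bitransgenic lungs but not past the threshold (limma adjusted p = 0.332). Gstt1, of another class of the family, read 2627, 2975 and 3942 against 5794, 4933 and 7829 (log2 change 0.93, limma adjusted p = 0.193).

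The rises included genes for cell adhesion and the cell surface. Cdh16, for a cadherin best known from kidney, read 6342, 6150.3 and 5263 against 19144, 18769 and 16407, a log2 change of 1.60 (limma adjusted p = 0.00164). Dsg2, a cadherin gene of the desmosome, read 1148, 1098 and 1317 in control and 2397, 2396 and 2648 in bitransgenic lungs, and Igsf5, for a junctional adhesion protein, read 1952, 2146 and 1814 against 3404, 3746 and 3682. Flrt3, for a membrane protein that acts in adhesion and with Fgf receptors, read 2024, 1861 and 1728 against 4198, 4049 and 4715. Their log2 changes were 1.01, 0.85 and 1.17. Clec12b, a lectin receptor gene, read 27.2, 33.8 and 34.0 in control and 246, 265 and 327 in bitransgenic lungs, with all controls below the pseudocount, so that its change depends on that choice. St6galnac2, a sialyltransferase gene, read 1764, 1994 and 1536 against 3443, 3378 and 3721 (log2 change 0.97).

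Other rises included regulators of development. Rspo2, for a secreted protein that strengthens Wnt signals, read 1175, 894 and 1016 against 3693, 2498 and 4134, a log2 change of 1.64 (limma adjusted p = 0.0234). Mecom, a zinc finger transcription factor gene, read 8505, 7148 and 5795 in control and 15269.8, 15482 and 16415 in bitransgenic lungs, and Irx2, an Iroquois homeobox gene, read 1998, 2296 and 2265 against 4429, 3929.7 and 4034. Their log2 changes were 1.14 and 0.89. Rtl3, a gene derived from a retrotransposon, read 353, 427 and 418 against 1481, 1544 and 1554, with a spread so small that every bitransgenic signal was more than 3-fold the highest control (log2 change 1.73). Fbn2, the fibrillin gene of fetal elastic fibres, read 4999, 4854 and 4077 in control and 8605, 8144 and 8233 in bitransgenic lungs (log2 change 0.84). Among the enzymes and transporters, Aldh1a7, an aldehyde dehydrogenase gene, read 16821, 15815 and 16418 against 27515, 27543 and 28946, and Atp13a4, a transport ATPase gene, read 515, 586 and 419 against 1438, 1534 and 1486. Lyplal1, a lysophospholipase-like gene, read 4660.3, 4369 and 3931 in control and 8564, 8304 and 9633 in bitransgenic lungs, and Grpel2, for a mitochondrial chaperone partner, read 2186, 2172 and 1796 against 4084, 4405 and 4687. Niban1, a stress-related gene, read 2768, 2739 and 2497 against 6446, 5327 and 5486, and Fam184a, a gene of poorly known role, read 1680.5, 1358 and 1185 in control and 3274, 3383 and 3866 in bitransgenic lungs. The log2 changes of these 6 genes lay between 0.77 and 1.42.

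**Figure D3:**
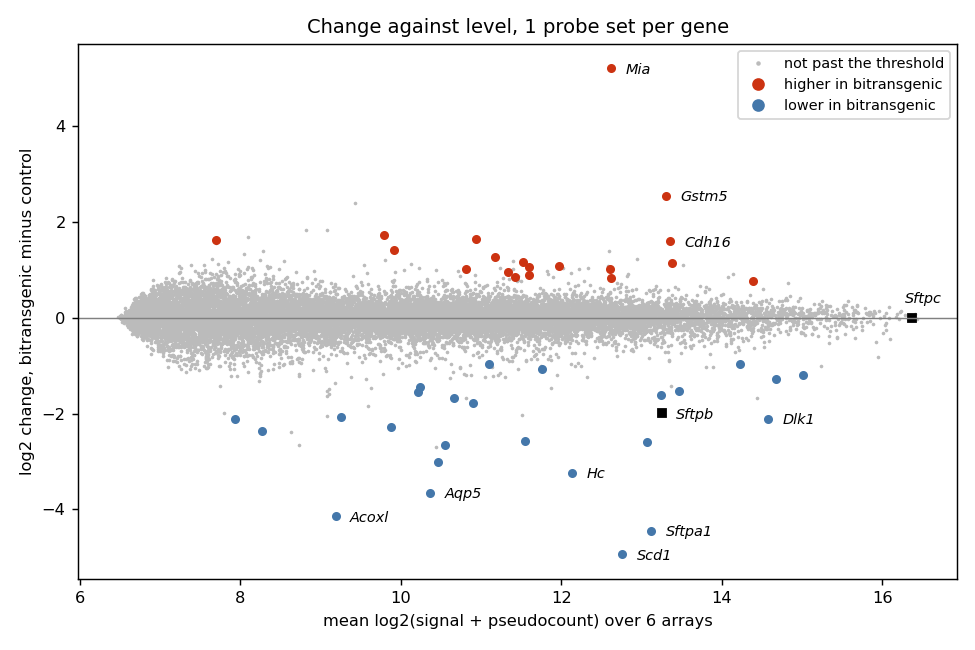
Each point is 1 gene, with its mean log2(signal + 86.4) over the 6 arrays on the horizontal axis and its log2 change on the vertical axis. Calls lie at many levels, with Mia alone above 5, and Sftpb and Sftpc (squares) did not pass.

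Regulators of the lung epithelium did not pass, and those whose groups did not overlap lay on both sides. None of 26 measured transcription factor genes passed, and the median was 0.12. In 6 of the 26 all bitransgenic values lay above the controls (7.55% of all genes), and in 4 below (6.71%). Nkx2-1, which specifies lung identity, read 370.4, 378 and 466 against 464, 446 and 425, with a 95% interval of -0.34 to 0.57 for its log2 change. Foxa1, a forkhead factor of the lung epithelium, read 15730.1, 13648 and 9838 against 22451, 23954 and 23062, without overlap (log2 change 0.85, limma adjusted p = 0.163). Its relative Foxa2 read 4031, 3702 and 3558 in control and 4518, 4570.2 and 4776 in bitransgenic lungs (limma adjusted p = 0.556). Cebpa, a factor of type II cell maturation, lay on the other side, with 3882, 4803 and 6051 against 2113, 2464 and 3410.1 (log2 change -0.87, limma adjusted p = 0.27). Of 22 measured genes of epithelial identity Cdh16 rose (genes higher, 0.104% of all), none fell and 21 did not pass. Epcam, the pan-epithelial adhesion gene, read 6041, 6913 and 3507 against 8449.8, 8364 and 7802, without overlap (log2 change 0.63, limma adjusted p = 0.522), and Cdh1, for E-cadherin, read 10292, 15822 and 8198 in control and 14862, 19764 and 9956 in bitransgenic lungs, with overlap. Both lists had positive medians, the second of 0.20.

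Airway genes held 1 rise. Of 16 measured club and secretory cell genes Aldh1a7 rose (genes higher, 0.104% of all), none fell, and the median was -0.05. Cckar, a cholecystokinin receptor gene, read 1588, 1834 and 1400.3 against 3640.1, 2746 and 3846 and just missed the threshold (limma adjusted p = 0.0743). Scgb1a1, the main club cell secretoglobin, read 47255, 49879 and 56934 against 36224, 40574 and 38454 (log2 change -0.42, 95% interval -0.72 to -0.11). None of 16 measured genes of motile cilia passed, with a median of 0.024, and Foxj1 read 1078, 1349 and 1652 in control and 1288, 1142 and 1527 in bitransgenic lungs, with a 95% interval of -0.46 to 0.39.

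Signalling genes of lung growth held single calls. Rspo2 was the 1 of 35 measured Wnt genes that rose (genes higher, 0.104% of all), none fell, and the median was -0.028. In 3 of the 35 all bitransgenic values lay above the controls (7.55% of all genes), and in 4 below (6.71%). Notum, an inhibitor that Wnt signals induce, read 1191, 1185 and 1153 against 521, 610.0 and 739 (log2 change -0.84, limma adjusted p = 0.172). Lef1, a transcription factor of the pathway, read 1605, 1732 and 867 against 636, 995 and 347, with overlap (limma adjusted p = 0.505). Flrt3 was the 1 of 38 measured Fgf, Hedgehog and Bmp genes that rose (genes higher, 0.104% of all), and none fell. Shh, the hedgehog ligand of the epithelium, read 23531, 19176 and 20759 in control and 25554, 25319.5 and 30081 in bitransgenic lungs (log2 change 0.35, 95% interval 0.046 to 0.65), and Fgfr2, the receptor through which Fgf10 acts on the bud, read 19766, 17944 and 16343 against 12832, 13905 and 13744 (limma adjusted p = 0.386). Fgf10 itself was dim, between 192 and 416, and Bmp4 read 3523, 2893 and 4663 against 3611, 3718 and 4604 with overlap.

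The matrix and its receptors, to which MIA binds, were measured in 3 lists. Of 23 members of the integrin and fibronectin list, Mia itself was the 1 that rose (genes higher, 0.104% of all), and none fell. In 8 of the 23 all bitransgenic values lay below the controls (6.71% of all genes), and in 2, Mia among them, above (7.55%). Itga9, an integrin subunit gene, read 1222, 1348 and 1484 in control and 739, 681 and 559.9 in bitransgenic lungs (log2 change -0.95, limma adjusted p = 0.111), and Itgb6, a subunit of epithelial integrin, read 1428, 1514 and 1276 against 777, 913 and 782 (limma adjusted p = 0.193), both without overlap. None of 27 cartilage and proteoglycan genes passed. Fmod, the fibromodulin gene, read 4667, 3998 and 2723 against 13034, 9570.0 and 7847 (log2 change 1.40, limma adjusted p = 0.0892), and the cartilage collagen gene Col2a1 was dim on every array, with a highest signal of 278. Fbn2 was the 1 of 26 interstitial matrix and elastic fibre genes that rose (genes higher, 0.104% of all). Eln, for elastin, read 54252, 51908 and 60117 in control and 47289, 52711 and 41209.9 in bitransgenic lungs, with overlap, and Col1a1, for collagen I, read 5842, 6475 and 24096 against 7292, 7647 and 12662, with control 3 far above the others, and its log2 change of -0.12 turned positive without control 3, without bitransgenic 1, with array weights and with the Actb ratio in the model.

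Endothelial genes had small differences in 1 direction. All 26 measured members had negative log2 changes, with a median of -0.38, and in 16 all bitransgenic values lay below the controls (6.71% of all genes). Of these Car4, for the carbonic anhydrase of capillaries, was the 1 to fall (genes lower, 0.137% of all), and none rose. Car4 read 1718, 2248 and 1771 against 623, 682 and 639 (log2 change -1.43, limma adjusted p = 0.0149). Kdr, the main receptor for Vegf, read 9741, 9773 and 12571 in control and 8447, 8525 and 8721 in bitransgenic lungs (log2 change -0.31, 95% interval -0.60 to -0.014), and Cldn5, a tight junction gene of vessels, read 13785, 16131 and 16806 against 9256, 11421 and 9648 (limma adjusted p = 0.193). Vegfa, the epithelial signal for capillaries, read 8619.9, 7747 and 9057 against 6243, 7456 and 6197 (limma adjusted p = 0.516). With the Actb ratio in the model no endothelial gene passed and the median was -0.21.

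Markers of other cells and of neighbouring tissue were read in the same way. No gene of 20 in smooth muscle and pericytes, 20 in heart muscle, 7 in red cells, 23 in neutrophils and macrophages or 17 in thyroid, oesophagus and thymus passed. Acta2, the smooth muscle actin gene, read 26716, 27372 and 33160.5 in control and 29394, 30837 and 32064 in bitransgenic lungs, and Ptprc, the pan-leukocyte gene, read 2904, 2497 and 2191 against 3296, 2341 and 2923, both with overlap. In the neutrophil and macrophage list 6 of 23 members had all bitransgenic values below the controls (6.71% of all genes) and 1 had them above (7.55%). The 6 were Lcn2, S100a9, Ngp, S100a8, Ltf and Mrc1, with log2 changes of -2.70, -1.21, -0.81, -0.42, -0.35 and -0.21, of which the first 5 are known from neutrophils and Lcn2 also from epithelium, and the 1 above was Fabp4, at 0.51. The list summed to 42063 to 45362 in control and 38767 to 42268 in bitransgenic lungs, and its part in the falls of secreted defence genes was not tested. The summed signal of the heart list was 46323 to 74728 in the controls and 51733 to 73736 in the bitransgenic lungs, which overlap, although Myh7, a myosin gene, read 6182, 4710.5 and 4929 against 10399, 9322 and 9239.9 (limma adjusted p = 0.0657). The red cell list summed to 16933 to 20473 against 10412 to 12609, with Alas2, for the first enzyme of haem synthesis in red cells, at 9549, 11266 and 14287 in control and 5216, 7431 and 6976 in bitransgenic lungs (limma adjusted p = 0.219). The part of blood content in the other results was not tested. The thyroid, oesophagus and thymus list was dim throughout, with sums of 2323 to 3329 over 17 genes on the 6 arrays.

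None of 28 proliferation genes passed, with a median of -0.062, and Mki67, present in cycling cells, read 9454, 9149.7 and 9756 against 9227, 8586 and 9699, with a 95% interval of -0.29 to 0.20 for its log2 change. In the fetal growth list Rtl3 rose and Dlk1 fell among 19 measured genes (0.104% and 0.137% of all genes). Hmga2, a chromatin protein gene of fetal tissue, read 2086, 1743 and 1329.7 against 4529, 3567 and 3895 (limma adjusted p = 0.0544). Meg3, the imprinted RNA gene next to Dlk1, read 83676, 74304 and 87569.7 in control and 60144, 59829 and 60716 in bitransgenic lungs, lower in all bitransgenic lungs but not past the threshold (limma adjusted p = 0.456). None of 20 glucocorticoid response genes passed, with a median of -0.22. Log2 changes were negative in 16 of the 20 and positive in 4, and the lowest was that of Scnn1g, at -1.19. All bitransgenic values lay below the controls in 4 of the 20 (6.71% of all genes) and above them in 1 (7.55%). Tsc22d3, a direct target of the receptor, read 5332, 6295 and 3435 against 5267, 5481 and 4387, with overlap.

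**Figure D4:**
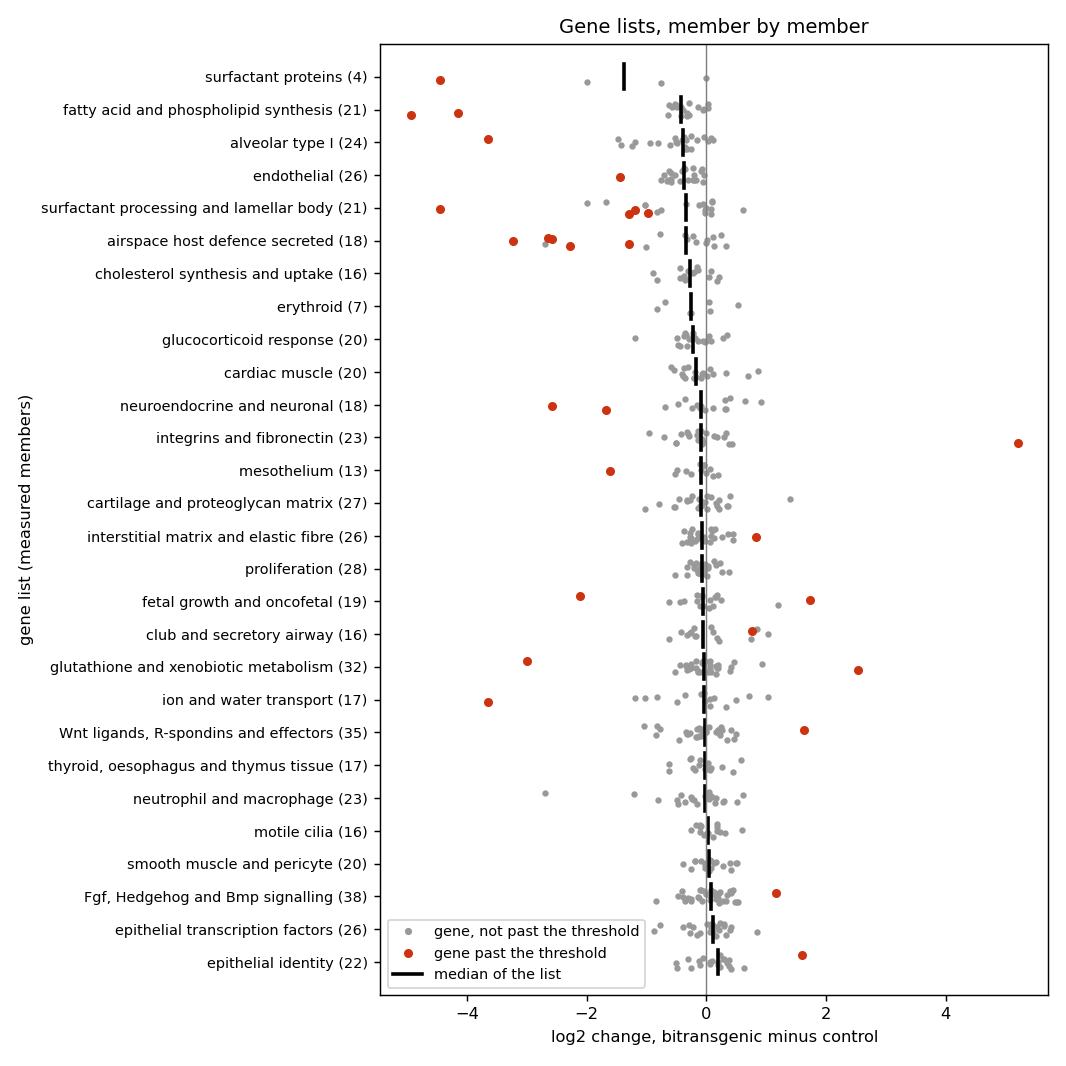
Each row is a gene list with its number of measured members, each point the log2 change of 1 gene, and the bar the list's median (red, past the threshold). The lowest medians belong to the surfactant proteins, at -1.37, and the fatty acid list, at -0.41, and the highest to epithelial identity, at 0.20; several genes are in more than 1 list.

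Probe sets of the same gene did not always agree. Of the 51 named genes with a call, 26 had 1 probe set and 25 had several. In 3 of the 25, Sftpa1, Scd1 and Dlk1, every probe set passed, in 23 every probe set had the same sign, and in none did probe sets pass in both directions. The exceptions in sign were Lpcat1, with 1 dim probe set of 5 at a log2 change of 0.45, and Abca3, with 1 of 3 at 0.37, neither past the threshold. In 7 of the 51 genes the brightest probe set did not pass but another did. They were Clic5, Cxcl15, Fabp5, Scd2 and Rgcc, with log2 changes of -1.22, -1.37, -1.12, -1.02 and -1.06, Jam2 with -1.84 and Ccnd2 with 1.30. Clic5, Cxcl15, Fabp5 and Scd2 are genes of type I cells, airspace defence and lipid metabolism, Rgcc is a regulator of the cell cycle, Jam2 is a junctional adhesion gene, and Ccnd2 encodes cyclin D2. The Jam2 probe set read 258, 289 and 275 against 24.0, 8.77 and 9.40, while its brightest probe set had a log2 change of -0.33. For Ccnd2 the 7 probe sets ran from 0.065 to 1.30 in log2 change. Of the 4 probe sets with no gene name, a pair fell, by 1.92 and 1.16 on the log2 scale, and a pair rose, by 1.70 and 0.83.

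**Figure D5:**
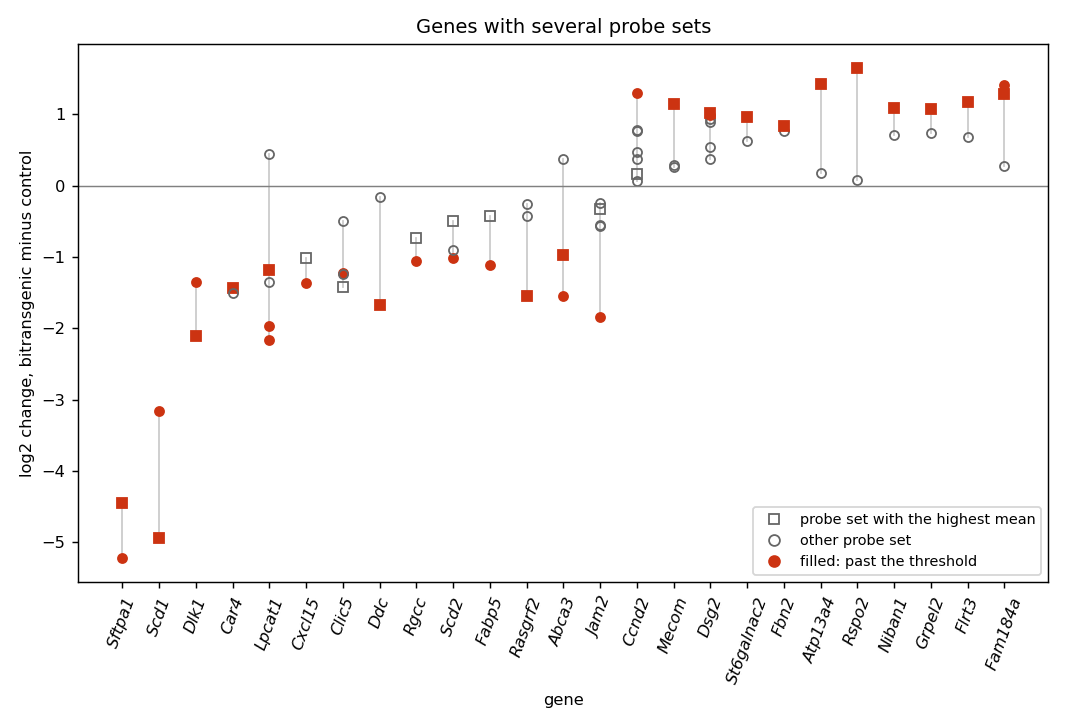
Log2 change of every probe set of the 25 called genes that have more than 1 (squares, the brightest; circles, the others; filled, past the threshold). Most genes stay on 1 side of 0, and Lpcat1 and Abca3 each have 1 open circle above it.

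Beside the threshold the adjusted p changed little, while the log2 changes differed. The last probe sets inside were those of Aldh1a7 and Igsf5, with log2 changes of 0.77 and 0.85 (limma adjusted p = 0.0473 and 0.049). The first outside were Gdnf, for a neurotrophic factor, with a log2 change of 1.68, and a second lysozyme gene, Lyz1, with -2.30 on a dim probe set, both at adjusted p = 0.0504 by limma. The Gdnf controls, at 59.2, 61.8 and 77.7, all lay below the pseudocount. The brightest Lyz1 probe set had a log2 change of -0.82.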

How the data were processed

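RNA of whole lung was measured on Affymetrix MOE430_2 arrays. The deposited values are linear intensity signals of MAS5, made by the authors, and each array's 2% trimmed mean is 1500; the background and scaling steps behind them are not given in the sources used here. The 2 arrays of another platform were not used. Signals were taken as log2(signal + 86.4), the pseudocount being the 20th percentile of the table, which compresses changes of dim genes. Groups were compared with lmFit and eBayes (trend) of limma 3.58.1 in R 4.3.3, with Benjamini-Hochberg adjustment over 45037 probe sets and a threshold of 0.05. Of these, 34945 had 1 gene symbol in the platform annotation, 932 several and 9160 none, and 18193 genes were read by their brightest probe set. The text names every called gene, the fixed lung markers and members of 28 gene lists. The comparison, members and lists were chosen with earlier results of these data known. With 3 arrays against 3, 10 splits exist and a permutation test of 1 value cannot go below 0.1, so no such test is given. Array number limits the precision. The fit was tested on simulated data with 200 of 45037 probe sets changed, all drawn from those at or above the median level. Of those changed 2-fold 32.7% were recovered, of those changed 4-fold 89.5%, but of those changed 1.5-fold 1.19%. Of the calls 3.80% were false. The simulated noise was independent and drawn from the variance model that the fit assumes, so these rates hold for that model only. Changes in dim probe sets and differences in array quality were not simulated. Alternatives were the pseudocount, filters on dim probe sets, scaling, eBayes settings, array weights, covariates and each array left out. Figures were drawn with matplotlib 3.10.9.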

Additional observations from a re-analysis of the deposited data

How the results depend on the processing

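The change of Mia passed and stayed between 4.90 and 5.35 on the log2 scale under every alternative tried, and all 44 called genes kept their sign. The count of 63 probe sets (24 higher, 39 lower) became 120 (44 and 76) without those under the 40th percentile, of which 59 were among the 63, and 101 (38 and 63) without those under the 60th; both filters test fewer probe sets. Without the intensity trend it was 22 (5 and 17), and with array weights 305 (129 and 176). It was 11 (2 and 9) once the Actb ratio entered the model, and 66 (20 and 46) with sex there instead. Each of these covariates leaves 1 residual degree of freedom fewer, and the Actb ratio also ran with the groups. Median centring left 15 higher, and the causes were not tested. With 1 array left out it ran from 18 to 46, from 3 to 16 higher and from 14 to 30 lower, with fewer samples, and 12 of the 44 genes passed in all 6 of those fits. A fit of 1 probe set per gene above the 40th percentile, chosen after seeing the data, called 85 of 12625, 41 of them also called over all probe sets. No gene that passed turned its sign. Among uncalled genes, Sftpc became -0.017 with median centring, -0.013 with quantile normalization, -0.019 with array weights and -0.067 to 0.12 with an array left out. Col1a1 became 0.16 with array weights and 1.0 with the Actb ratio; with an array left out it ran from -0.49 to 0.53, positive without bitransgenic 1 (0.019) or control 3. With the Actb ratio Cyp2f2 became 0.0093, Foxj1 0.17, Hopx 0.070, Mia2 -0.028, Ptprc -0.17 and Wnt7b 0.12. With an array left out Bmp4 ran from -0.035 to 0.30, Foxj1 from -0.18 to 0.11 and Mki67 from -0.086 to 0.0015. The causes were not tested. No paired analysis was possible because the replicate numbers follow accession order and pair no samples. Dim genes are limited by the pseudocount, and 5 called probe sets had a group mean below it.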
